A study of Mus musculus with 13 samples.

Results

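The departure from additivity of an estradiol pellet and a high-fat diet was measured in the endometrium of ovariectomized mice, feature by feature, on a gene expression array. For each of the 65929 array features it is the difference (MIX − HD) − (E2 − CON) between group means on the log2 scale, over all 13 mice of the series. A departure above 0 means that the level in the combined group exceeded the level to which the single treatments add up, and a departure of 1 is a factor of 2. All mice were C57BL/6 females that lost both ovaries at 6 to 8 weeks of age and were then kept for 12 weeks under their treatment. The groups were MIX (E2-releasing pellet under the skin plus high-fat diet, n = 3), E2 (the pellet alone, n = 4), HD (high-fat diet alone, n = 3) and CON (normal chow, n = 3). Every group thus lacked ovarian hormones, which limits each one as a model of an intact animal, and the pellet's dose and the diet's make-up are not stated in the labels. Endometrium was scraped from the opened uterus, and 250 ng of total RNA per mouse was labelled.

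Estradiol acts on the uterus through the receptor ERα, which in the adult drives epithelial growth and the secretion of proteins such as lactoferrin. In rodents it also drives the keratinised, layered epithelium of the lower reproductive tract, whose basal cells are marked by the transcription factor p63 and by keratins 5, 14 and 15. A high-fat diet enlarges fat tissue, which can itself make estrogens and inflammatory signals. A design with both treatments, each alone and neither can ask whether they act on a gene independently, in which case their log2 differences add.

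The scraped tissue carried epithelial RNA: the mean log2 intensity of 23 simple epithelial markers (keratins 8 and 18, Epcam and others) was 9.03 to 9.63 in MIX, 9.07 to 9.36 in E2, 9.22 to 9.55 in HD and 9.26 to 9.34 in CON mice. Array medians ran over 4.48 to 4.57 in MIX mice and 4.48 to 4.71 over all mice, and arrays correlated at 0.96 to 0.995 across features. Sample titles carry 2 styles of animal code, numbered and lettered. All 3 MIX mice are lettered, as are E2 4, HD 3 and CON 3, so the code style partly coincides with the combined treatment. For this reason the departure was also estimated with code style as a covariate and from the 6 lettered mice alone. The labels do not say what the styles mean.

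No feature passed the test for a departure at a Benjamini-Hochberg adjusted limma p under 0.05, so 0% of 65929 features were called. The smallest adjusted p was 0.131, for Trp63. At unadjusted p under 0.05 there were 3035 features, of which 854 (1.3% of all features) lay above 0 and 2181 (3.31%) below. A threshold of 0.05 would give 3296 features if no departure existed anywhere. The genes described here are therefore those with the smallest p-values and the largest departures, and none is a call after adjustment.

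The balance between features that exceeded and fell short of the sum depended on scaling. Over all features 35.5% lay above 0 and the median departure was −0.06. The array medians themselves had a departure of −0.106. With each array centred on its median, 61.7% of features lay above 0 and the median was 0.05. Among the 17799 genes with a mean log2 intensity of 5 or more, 46.6% lay above 0 as deposited. With centring this share was 65.8%, and over all genes with 1 symbol the share went from 41.5% to 67.9%. Departures near 0 thus have no stable sign. Counts of list members above 0 are set against the 35.5% of all features. Members of the gene lists are mostly brighter named genes, for which 46.6% and 65.8% are the nearer shares. List counts near these shares are not read as a pattern. Counts of members at an unadjusted p under 0.05 are set against 1.3% of all features above 0 and 3.31% below.

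Markers of squamous and basal epithelium had the highest median departure of the 54 gene lists, below the immunoglobulin class described further on. The lists were chosen with earlier results of these data known, so this rank is a description and not independent support. Of 35 measured members, 32 lay above 0, against 35.5% of all features, and the median departure was 0.77. The median difference from CON was 0.70 in MIX, 0.15 in E2 and 0.02 in HD. Of the members, 7 had an unadjusted p under 0.05, all above 0: Krt5, Krt13, Krt15, Gsta4, Pkp1, Trp63 and Dsc3. None passed after adjustment.

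Trp63, which encodes p63, the transcription factor that maintains basal cells of layered epithelia, had log2 intensities of 5.27, 5.19 and 5.38 in MIX mice, 4.59, 4.6, 4.51 and 4.62 in E2 mice, 4.39, 4.39 and 4.50 in HD mice and 4.62, 4.62 and 4.50 in CON mice. Every MIX mouse lay above all 10 other mice. E2 overlapped CON, as did HD at 4.50, while every HD mouse lay below every E2 mouse. Its departure was 0.85 ± 0.10 (SE), with a limma adjusted p of 0.131, and 0.0504 when only features with 1 gene symbol were tested. It was 0.84 with code style as a covariate and 0.66 in lettered mice, and it ran from 0.79 to 0.89 when any 1 mouse was left out. These levels are low on the array's scale, near the array medians.

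Krt15, a keratin of basal cells, had log2 intensities of 9.68, 8.39 and 8.73 in MIX mice, 7.63, 7.48, 7.12 and 7.35 in E2 mice, 6.63, 6.61 and 6.41 in HD mice and 6.68, 6.60 and 6.36 in CON mice. The lowest MIX mouse lay above the highest E2 mouse, and each E2 mouse lay above each HD and CON mouse. The difference from CON was 2.38 in MIX, against 0.85 in E2 and 0.00 in HD, which left a departure of 1.53 ± 0.36 (limma adjusted p = 0.929). Krt5, the partner keratin of basal cells, had 11.64, 10 and 12.14 in MIX mice, 10.15, 9.0, 8.45 and 9.01 in E2 mice, 7.55, 7.51 and 7.05 in HD mice and 8.03, 7.91 and 7.20 in CON mice. MIX 2 lay within the E2 range, so the 2 groups overlapped. The departure of Krt5 was 2.45 ± 0.72.

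Krt13, a keratin of the suprabasal layers, had log2 intensities of 10.51, 9.30 and 10.49 in MIX mice, 9.30, 8.35, 7.92 and 8.65 in E2 mice, 6.53, 6.76 and 6.76 in HD mice and 7.31, 6.81 and 6.66 in CON mice. Its departure was 1.79 ± 0.50. Pkp1, a plakophilin of desmosomes, departed by 0.99 ± 0.30 and Dsc3, a desmosomal cadherin, by 0.61 ± 0.24. Genes of the outer, cornified layers did not show one pattern: Sprr1a (a cornified envelope protein) departed by 1.29 ± 0.99 and Cnfn (cornifelin) by 1.18 ± 0.82, while Lor (loricrin) stood at −0.11 ± 0.11 and Tgm3 (an epidermal transglutaminase) at −0.13 ± 0.10.

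The size of the squamous pattern differed between MIX mice. The mean log2 intensity of the 35 markers was 7.29, 6.31 and 7.47 in MIX mice, 6.73, 6.16, 5.98 and 6.01 in E2 mice, 5.78, 5.89 and 5.94 in HD mice and 5.88, 5.90 and 5.67 in CON mice. MIX 2 lay below E2 1. The median departure of the list was 1.02 without MIX 2 and 0.41 without MIX 3, and 0.84 with code style as a covariate and 0.73 in lettered mice. Without MIX 2, 5 features passed at a limma adjusted p under 0.05: Akr1c21, Pkp1, Trim29, Fat2 and Trp63. That fit removes the MIX mouse that was lowest for this list and for Akr1c21. Without MIX 3, 2 passed, Pip and A330093E20Rik, each above 0. In both fits the departures of these features were larger than with all mice, where none passed. The passes are therefore no independent support.

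**Figure D1:**
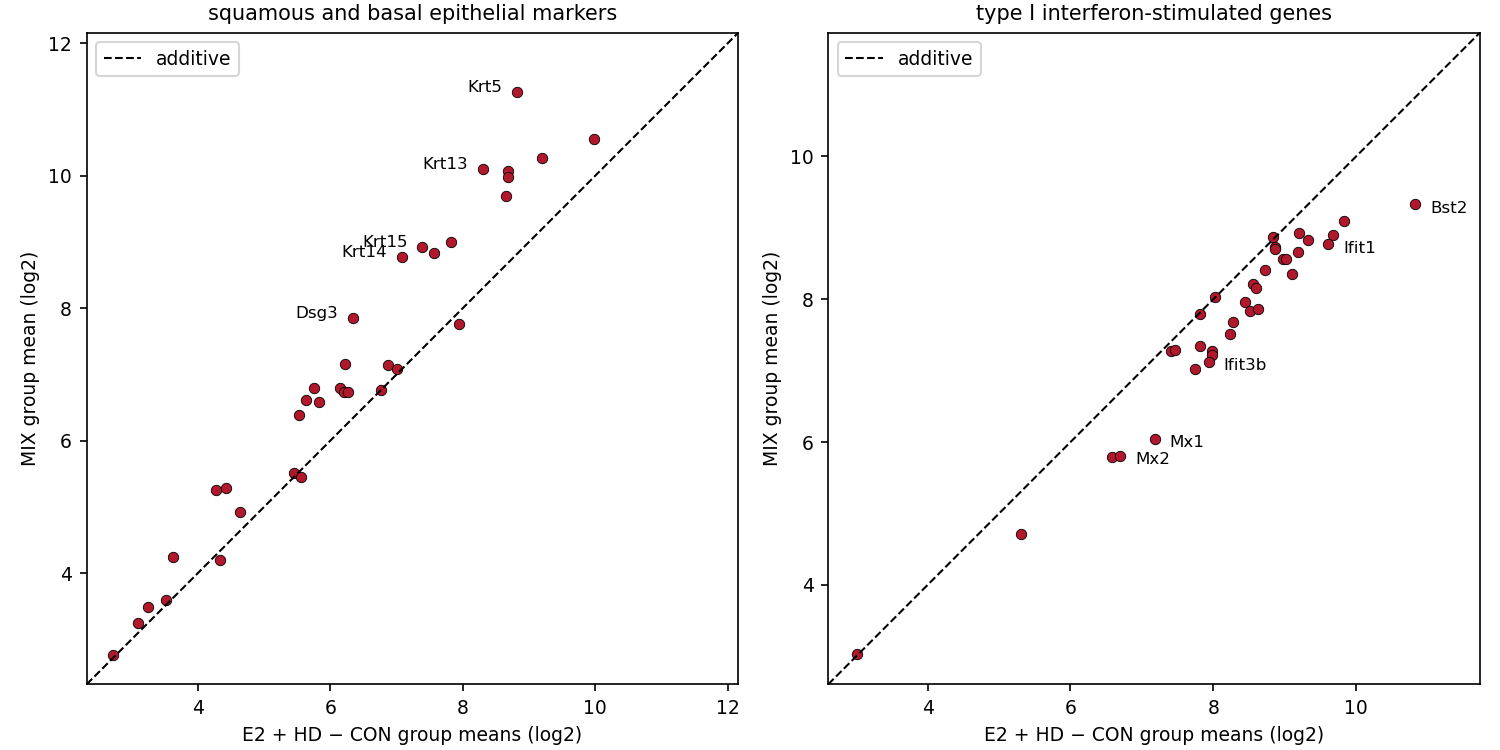
Group mean of MIX (vertical axis, log2 intensity) against the level the single treatments add up to (horizontal axis, E2 + HD − CON group means, log2 intensity) for 35 squamous and basal markers (left) and 35 type I interferon-stimulated genes (right). Each point is a gene and the dashed line marks additivity: 32 squamous markers lie above it, and 33 interferon-stimulated genes lie below it.

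The promoter of Krt13 is shown because its gene had one of the largest departures in the list and because the AP-1 element, a binding motif of Fos and Jun proteins, is common in promoters of this list. RefSeq (GRCm38.p6) gives Krt13 2 promoter windows. The 250 bases before the start with more matches, at chr11:100120578-100120827 on the minus strand, are printed with the AP-1 letters TGANTCA (either strand) in capitals.
Krt13: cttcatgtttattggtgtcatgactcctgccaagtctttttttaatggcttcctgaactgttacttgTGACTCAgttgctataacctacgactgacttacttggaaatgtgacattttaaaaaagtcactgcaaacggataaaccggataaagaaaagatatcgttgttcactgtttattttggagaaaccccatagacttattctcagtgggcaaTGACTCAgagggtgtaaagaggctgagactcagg
The matches begin at −183 and −34 relative to the start. The motif was found in 9 of 22 windows (20 genes) of the squamous list, 40.9%, against 7.81% of all 32851 windows of 250 bases before and 50 after a start. It was also in 7 of 30 windows of the interferon-stimulated list and 6 of 29 of the macrophage list. A match describes these letters only, and no binding was measured.

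Outside that list, Akr1c21 had the largest departure among the genes with the smallest p-values. It encodes a mouse hydroxysteroid dehydrogenase that interconverts active and inactive sex steroids. Its log2 intensities were 7.14, 4.87 and 7.66 in MIX mice, 3.36, 3.18, 3.10 and 3.00 in E2 mice, 3.10, 3.25 and 3.06 in HD mice and 3.10, 3.08 and 3.02 in CON mice. Every MIX mouse lay above the other 10, with MIX 2 again lowest of the 3. The departure was 3.33 ± 0.71 (limma adjusted p = 0.929). It was 4.17 without MIX 2, with a limma adjusted p of 3.77e-05, but that fit removes the MIX mouse furthest from the other MIX mice. It was 3.03 without MIX 1 (limma adjusted p = 0.561) and 2.78 without MIX 3 (limma adjusted p = 0.885). With code style as a covariate it was 3.43. The other groups sat near the bottom of the array's range of 1.66 to 13.8, where differences are compressed. Of 23 measured steroid-converting enzymes 11 lay above 0, the median was −0.02, and Akr1c21 alone had an unadjusted p under 0.05.

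Some transport and receptor genes had the same shape, with MIX apart from all other mice, and their cell source was not measured. Vdr, the vitamin D receptor, had 6.40, 6.49 and 6.66 in MIX mice, 5.78, 5.88, 5.83 and 5.74 in E2 mice, 5.49, 5.59 and 5.78 in HD mice and 5.72, 5.72 and 5.40 in CON mice, a departure of 0.70 ± 0.15 (0.40 in lettered mice). Scnn1a, the alpha subunit of the epithelial sodium channel, departed by 0.76 ± 0.24, and every MIX mouse (7.49, 7.12 and 7.79) lay above the highest other mouse, an E2 mouse at 6.99. P2rx4, an ATP-gated cation channel, departed by 0.72 ± 0.17 (0.44 in lettered mice). Cftr, the chloride channel of secretory epithelium, went the other way, with 9.02, 7.01 and 7.78 in MIX mice, 8.61, 8.48, 8.38 and 8.17 in E2 mice, 9.17, 9.14 and 9.60 in HD mice and 8.60, 8.66 and 8.53 in CON mice, a departure of −1.18 ± 0.51. MIX 1 lay within the range of the other groups, and the departure was −0.72 without MIX 2. Of 32 measured water and ion channels 18 lay above 0 (56.2%, against 46.6% of brighter genes as deposited and 65.8% after centring). At an unadjusted p under 0.05, 3 lay above 0 and 1 below. The 3 were Scnn1a, the dim Clca2 (MIX mean 4.12) and Aqp3 (1.03 ± 0.41), in which MIX 2 lay within the E2 range.

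Among transcriptional regulators, Tle4, a Groucho-family corepressor, had 7.02, 7.20 and 7.32 in MIX mice, 6.34, 6.30, 6.21 and 6.54 in E2 mice, 5.96, 6.00 and 6.12 in HD mice and 6.20, 6.31 and 5.93 in CON mice. Its departure of 0.95 ± 0.16 was 0.45 in lettered mice. Prdm1, the repressor Blimp-1 of plasma cells and maturing epithelium, had 6.76, 7.61 and 7.51 in MIX mice, 5.92, 6.49, 5.68 and 6.65 in E2 mice, 5.65, 5.55 and 5.56 in HD mice and 5.85, 6.06 and 6.01 in CON mice. Its departure was 1.5 ± 0.35. MIX lay above E2 in every mouse, while HD lay below CON in every mouse. Over all features, MIX lay above all other mice in 331 (0.502%) and below them in 972 (1.47%).

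**Figure D2:**
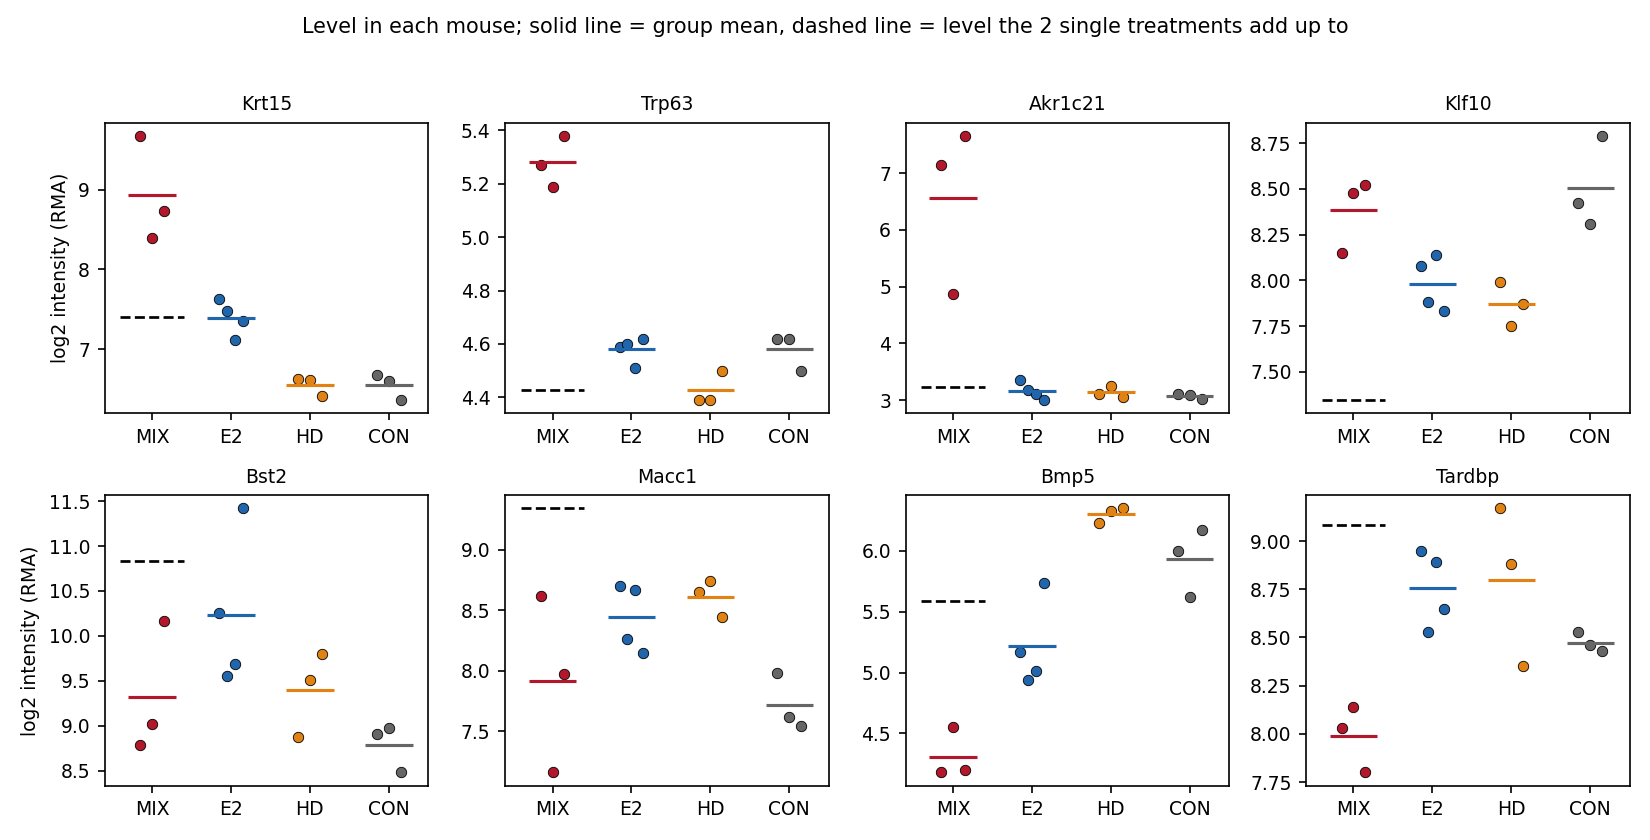
Log2 intensity (vertical axis) of 8 genes in each mouse by group (horizontal axis). Points are mice, solid lines group means, and the dashed line in the MIX column the level the single treatments add up to: Krt15, Trp63, Akr1c21 and Klf10 lie above it, and Bst2, Macc1, Bmp5 and Tardbp below it.

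A different shape gave departures above 0 with no gain in the combined group. Klf10, a zinc-finger repressor induced by TGF-beta, had 8.15, 8.48 and 8.52 in MIX mice, 8.08, 7.88, 8.14 and 7.83 in E2 mice, 7.99, 7.75 and 7.87 in HD mice and 8.42, 8.31 and 8.79 in CON mice. Both single treatments lay below CON in every mouse, by 0.52 and 0.63 of a log2 unit in the means, while MIX overlapped CON, which left a departure of 1.04 ± 0.19. Tob1, an antiproliferative protein, departed by 0.72 ± 0.17 (0.35 in lettered mice) and Creb3l4, a membrane-bound transcription factor of the endoplasmic reticulum, by 0.65 ± 0.11, with MIX overlapping CON in each. CON enters the sum of the single treatments and the departure with opposite signs, so the 2 quantities are not independent.

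In Ccnd2 and the FGF pathway, departures above 0 came with several relations of MIX to CON. Ccnd2, a D cyclin that drives entry into the cell cycle, had 7.22, 7.81 and 7.80 in MIX mice, 7.82, 7.62, 7.71 and 8.89 in E2 mice, 7.68, 7.24 and 6.48 in HD mice and 9.12, 9.34 and 8.94 in CON mice. Every CON mouse lay above all others, and the departure was 1.6 ± 0.49 because the single differences of −1.12 and −2.0 did not accumulate in MIX, which was at −1.52. Among 25 measured FGF pathway genes, 4 had an unadjusted p under 0.05 above 0 and 1 below. Above were Etv5, a transcription factor of FGF signalling (1.41 ± 0.54), Dusp6, a phosphatase of ERK (1.00 ± 0.37), and the feedback inhibitors Spry2 (0.67 ± 0.20) and Spry1, and below was the ligand Fgf1 (−0.66 ± 0.29). The MIX mean differed from CON by −0.75 in Etv5, 0.53 in Dusp6 and −0.43 in Spry2. Etv5 was at 0.87 without MIX 2, and in lettered mice Dusp6 was at 0.52, Spry2 at 0.32 and Fgf1 at −0.22. The list's median was 0.06, with 15 members above 0 (60.0%, against 46.6% of brighter genes as deposited and 65.8% after centring).

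BMP and TGF-beta genes departed in both directions. Of 51 measured, 35 lay above 0 (68.6%, against 46.6% of brighter genes as deposited and 65.8% after centring). At an unadjusted p under 0.05, 6 lay above 0 and 3 below, against 1.3% and 3.31% of all features. Bmp5, a ligand, had 4.18, 4.55 and 4.20 in MIX mice, 5.17, 4.94, 5.01 and 5.74 in E2 mice, 6.23, 6.33 and 6.35 in HD mice and 6.00, 5.62 and 6.17 in CON mice. The departure was −1.28 ± 0.28 (limma adjusted p = 0.929). Without the pellet every HD mouse lay above every CON mouse, and with it every MIX mouse lay below every E2 mouse. The receptor Bmpr1a departed by −0.66 ± 0.19 (−0.39 in lettered mice) and the receptor Bmpr2 by 0.42 ± 0.14. Smad4, the shared intracellular mediator, departed by 0.31 ± 0.12. The other members with an unadjusted p under 0.05 were the latent TGF-beta binding protein Ltbp1 (0.80), the ligands Bmp3 (0.74) and Bmp2 (0.36), the mediator Smad3 (0.37) and the receptor Tgfbr1 (−0.65).

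The Wnt list had 26 of 49 members above 0 (53.1%, against 46.6% of brighter genes as deposited and 65.8% after centring). Besides Tle4, those with an unadjusted p under 0.05 were the secreted antagonist Frzb (0.97 ± 0.36), the ligand Wnt5a (0.67 ± 0.25) and the transcription factor Tcf7l1 (0.43 ± 0.19). In lettered mice Wnt5a was at 0.30 and Tcf7l1 at 0.26.

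Features in which the pellet went opposite ways on the 2 diets, with no overlap between mice, were few. MIX lay above HD while E2 lay below CON in 21 features (0.0319%), and MIX lay below HD while E2 lay above CON in 53 (0.0804%). For the diet the counts were 27 features with MIX above E2 and HD below CON (0.041%) and 93 with MIX below E2 and HD above CON (0.141%). Klf10 was in both sets in which the combined group was higher. Ndufs6, an accessory subunit of respiratory complex I, was in the pellet set in which it was lower, with 8.80, 8.88 and 8.79 in MIX mice, 9.39, 8.98, 8.99 and 9.04 in E2 mice, 9.13, 9.21 and 8.90 in HD mice and 8.81, 8.91 and 8.60 in CON mice.

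Type I interferon-stimulated genes fell short of the sum most uniformly of the lists, again as a description of lists chosen with earlier results known. These genes are switched on by interferon and encode antiviral proteins. Of 35 measured members 2 lay above 0, against 35.5% of all features, and the median departure was −0.52. The median difference from CON was 0.41 in MIX, 0.67 in E2 and 0.15 in HD. Only Bst2 had an unadjusted p under 0.05.

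Bst2, or tetherin, which holds budding viruses at the cell surface, had 8.78, 9.02 and 10.17 in MIX mice, 10.26, 9.55, 9.69 and 11.42 in E2 mice, 8.87, 9.51 and 9.80 in HD mice and 8.91, 8.98 and 8.48 in CON mice. Each E2 mouse lay above each CON mouse, while MIX overlapped E2, HD and CON. The departure was −1.51 ± 0.66 (limma adjusted p = 0.929), −1.11 without E2 4 and −3.41 in lettered mice. Mx1, an antiviral GTPase, departed by −1.13 ± 0.88 (−0.48 without E2 4), and Samd9l, an antiviral factor, by −0.72 ± 0.36 (−0.41 without MIX 2).

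One mouse set much of the interferon pattern. The mean log2 intensity of the 35 genes was 7.78, 7.30 and 8.04 in MIX mice, 7.94, 7.46, 7.50 and 9.21 in E2 mice, 6.85, 7.43 and 7.95 in HD mice and 7.38, 7.29 and 6.92 in CON mice. E2 4 lay more than a log2 unit above every other mouse. The median departure was −0.10 without E2 4 and −2.71 in lettered mice, where E2 4 is the only E2 mouse. On linear intensities 1 of 35 members lay above 0. The related interferon-induced GTPases had a median of −0.25, with 2 of 13 members above 0, and a median of 0.00 without E2 1.

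The promoter of Bst2 is shown because this gene had the smallest p of the list and because the core of the interferon-stimulated response element marks the class. The 250 bases before the start (RefSeq, GRCm38.p6) lie at chr8:71537473-71537722 on the minus strand, with the letters GAAANNGAAA (either strand) in capitals.
Bst2: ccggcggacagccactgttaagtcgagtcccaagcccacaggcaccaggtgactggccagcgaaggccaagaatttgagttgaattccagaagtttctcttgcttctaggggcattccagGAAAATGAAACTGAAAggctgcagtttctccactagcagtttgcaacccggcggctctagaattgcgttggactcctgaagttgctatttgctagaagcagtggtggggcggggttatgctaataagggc
The run holds 2 overlapping matches, which begin at −130 and −124. The motif was found in 14 of 30 windows (27 genes) of the interferon-stimulated list, 46.7%, and in 10 of 12 windows of the GTPase list, against 3.44% of all windows and 1 of 22 windows of the squamous list.

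Macrophage markers also fell short on the log2 scale, while all 3 treated groups had higher medians than CON. Of 33 measured members 5 lay above 0 and the median departure was −0.31, which was −0.08 without MIX 1 and −0.72 without MIX 3. The median difference from CON was 1.07 in MIX, 0.96 in E2 and 0.39 in HD. Ctss, a lysosomal protease of antigen-presenting cells, had 9.77, 9.30 and 10.63 in MIX mice, 9.86, 9.24, 10.44 and 10.06 in E2 mice, 9.69, 9.50 and 9.72 in HD mice and 8.90, 8.15 and 7.65 in CON mice. Every CON mouse lay below all others, and the 3 treated groups overlapped, with a departure of −1.41 ± 0.53 (−2.23 in lettered mice). Adgre1, the macrophage marker F4/80, departed by −0.83 ± 0.57, by −0.27 without MIX 1 and by −1.36 without MIX 3. On linear intensities 13 of the 33 lay above 0, with a median departure of −6.79% of the CON mean, so fewer members fell short on that scale. In bulk tissue, fewer cells of a type and less RNA per cell cannot be told apart.

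Immunoglobulin genes held 7 of the 8 largest departures above 0 among bright genes (a group mean of 6 or more) with an unadjusted p under 0.05. Symbols of predicted genes, clones, olfactory and vomeronasal receptors and small RNAs were left out of that ranking. The immunoglobulin genes were taken as a class after these values were seen. Ighv1-53, a heavy-chain variable segment of antibodies, had 6.86, 8.78 and 10.36 in MIX mice, 8.55, 7.96, 5.50 and 7.47 in E2 mice, 5.05, 4.93 and 6.52 in HD mice and 6.97, 8.11 and 7.94 in CON mice. Its departure was 3.47 ± 1.24, HD mice lay below all CON mice, and MIX overlapped E2 and CON. Of 209 immunoglobulin genes measured 193 lay above 0, with a median of 1.01 that was 0.49 without MIX 3 and 1.44 without MIX 1. The mean of the class was 4.83, 5.73 and 6.73 in MIX mice, 5.72, 5.24, 4.61 and 5.17 in E2 mice, 4.33, 4.43 and 4.75 in HD mice and 4.62, 5.26 and 5.38 in CON mice. These segments share sequence, so their probes are not independent. Jchain, which joins antibody units in plasma cells, departed by 1.97 ± 0.77, and the T, NK and B cell list had 26 of 29 members above 0 with a median of 0.15. In lettered mice 16 of 29 lay above 0, and the median was 0.05 without MIX 3 and 0.31 without MIX 1.

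**Figure D3:**
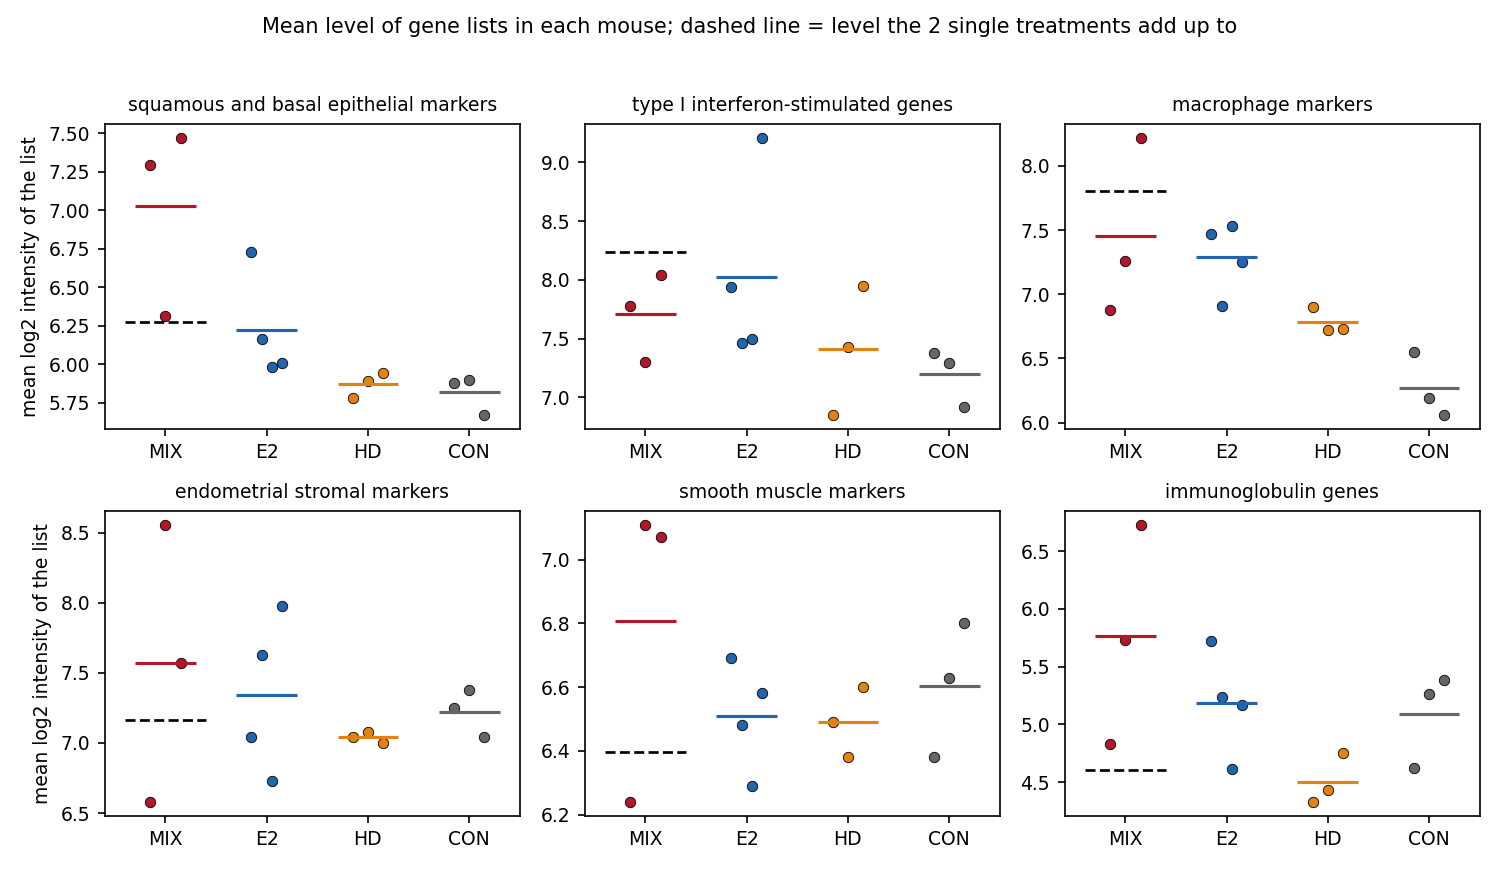
Mean log2 intensity over a gene list (vertical axis) in each mouse by group (horizontal axis) for 6 lists. Points are mice, solid lines group means, and dashed lines the level the single treatments add up to: MIX 2 is the highest mouse for stromal markers and E2 4 for interferon-stimulated genes.

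Markers of the wall and support tissue differed between MIX mice, with MIX 2 highest and MIX 1 lowest of all mice in each list mean. Smooth muscle markers had 26 of 29 members above 0 (median 0.43), endothelial and pericyte markers 25 of 29 (0.36) and endometrial stromal markers 24 of 26 (0.39). The mean log2 intensity of the stromal list was 6.58, 8.56 and 7.57 in MIX mice, 6.73 to 7.98 in E2 mice, 7.0 to 7.08 in HD mice and 7.04 to 7.38 in CON mice. Without MIX 2 the stromal median was −0.13 and the endothelial median 0.04, and without MIX 3 the smooth muscle median was 0.17. Without MIX 1 the medians were 0.89 for stromal, 0.65 for endothelial and 0.65 for smooth muscle markers. In lettered mice they were −0.48, 0.05 and 0.16 in the same order. The smooth muscle mean was 6.24, 7.11 and 7.07 in MIX mice, 6.29 to 6.69 in E2 mice, 6.38 to 6.60 in HD mice and 6.38 to 6.80 in CON mice. The endothelial mean was 5.5, 7.0 and 6.11 in MIX mice and 6.13 in E2 4. MIX 3 lay above every mouse of the other groups for smooth muscle markers only. The part of tissue make-up in the departures was not tested.

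The remaining bright genes (at least 1 group mean of 6 or more) with the smallest p-values below 0 share no one role, and MIX was the lowest group for several. Tardbp, which encodes the RNA-binding protein TDP-43, had 8.03, 8.14 and 7.80 in MIX mice, 8.95, 8.53, 8.89 and 8.65 in E2 mice, 9.17, 8.88 and 8.35 in HD mice and 8.53, 8.46 and 8.43 in CON mice. Every MIX mouse lay below all others, and the departure was −1.09 ± 0.25 (−0.58 in lettered mice). Hnrnpa2b1, another RNA-binding protein, departed by −0.57 ± 0.15 and Fkbp4, a co-chaperone of the progesterone receptor, by −0.58 ± 0.16, again with every MIX mouse lowest.

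Several of the largest shortfalls among bright genes with an unadjusted p under 0.05 were less even. Tspan8, an epithelial tetraspanin, had 10.24, 8.92 and 9.04 in MIX mice, 10.24, 10.05, 10.57 and 10.03 in E2 mice, 10.58, 10.61 and 10.03 in HD mice and 10.05, 9.56 and 9.67 in CON mice, a departure of −1.48 ± 0.43. Macc1, a regulator of the Met receptor gene, departed by −1.42 ± 0.41, with MIX 1 at 8.62 within the E2 and HD ranges. Prap1, a secreted protein of the uterine lining, departed by −3.22 ± 1.31, but its CON mice were at 12.44, 8.18 and 9.31. Spink12, a protease inhibitor, departed by −2.43 ± 1.06 (−1.39 without CON 3) with 8.90, 8.51 and 5.6 in CON mice. For both genes the range from the lowest to the highest CON mouse was larger than either single treatment's difference from CON.

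Of the estradiol targets used as a check of the hormone labels, only Olfm4 separated pellet from no pellet in every mouse. The difference from CON was 0.44 in E2 and 0.47 in HD for Ltf (lactoferrin), 0.19 and 0.31 for Lcn2 (lipocalin 2), −0.58 and −0.60 for Pgr (progesterone receptor) and −0.48 and −0.23 for Esr1 (ERα), and these differences share the CON mice. Ltf departed by −0.10 ± 0.33, Lcn2 by −0.17 ± 0.31, Pgr by 0.15 ± 0.57 and Esr1 by 0.17 ± 0.35, with 95% intervals that include 0. Olfm4, a secreted glycoprotein of estrogen-exposed epithelium, had 9.80, 9.17 and 10.38 in MIX mice, 9.04, 9.38, 7.89 and 6.89 in E2 mice, 4.83, 4.90 and 5.13 in HD mice and 4.82, 5.20 and 4.79 in CON mice. Its departure was 1.46 ± 0.73 (2.56 in lettered mice), and the E2 mice spread over more than 2 log2 units. Of 27 measured secretory targets 9 lay above 0.

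Metabolic and stress genes showed small departures. Respiratory chain genes had 9 of 53 members above 0, 5 with an unadjusted p under 0.05 below 0 and none above, and a median of −0.15. Ndufa4, a subunit of cytochrome c oxidase, departed by −0.74 ± 0.23. Centred on array medians the list's median was −0.04. Heat shock genes had 1 member with an unadjusted p under 0.05 above 0 and 5 below, among them the mitochondrial chaperone Hspa9 (−0.64 ± 0.19) and the cytosolic chaperone Hsp90aa1 (−0.73 ± 0.27, and 0.06 in lettered mice). Fatty acid synthesis genes had 18 of 26 above 0 (69.2%, against 46.6% of brighter genes as deposited and 65.8% after centring). The elongase Elovl1 was at 0.45 ± 0.13 (0.17 in lettered mice). The desaturase Fads1 was at 0.91 ± 0.40, at 0.64 without MIX 3 and at 1.37 without MIX 1, which lay below every CON mouse. Circadian clock genes had 16 of 20 above 0, a median of 0.30 and no member with an unadjusted p under 0.05. That median was 0.08 without MIX 2 and 0.06 in lettered mice. The median over replication and mitosis genes was −0.28, and it ran from −0.82 to 0.17 when 1 mouse was left out.

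**Figure D4:**
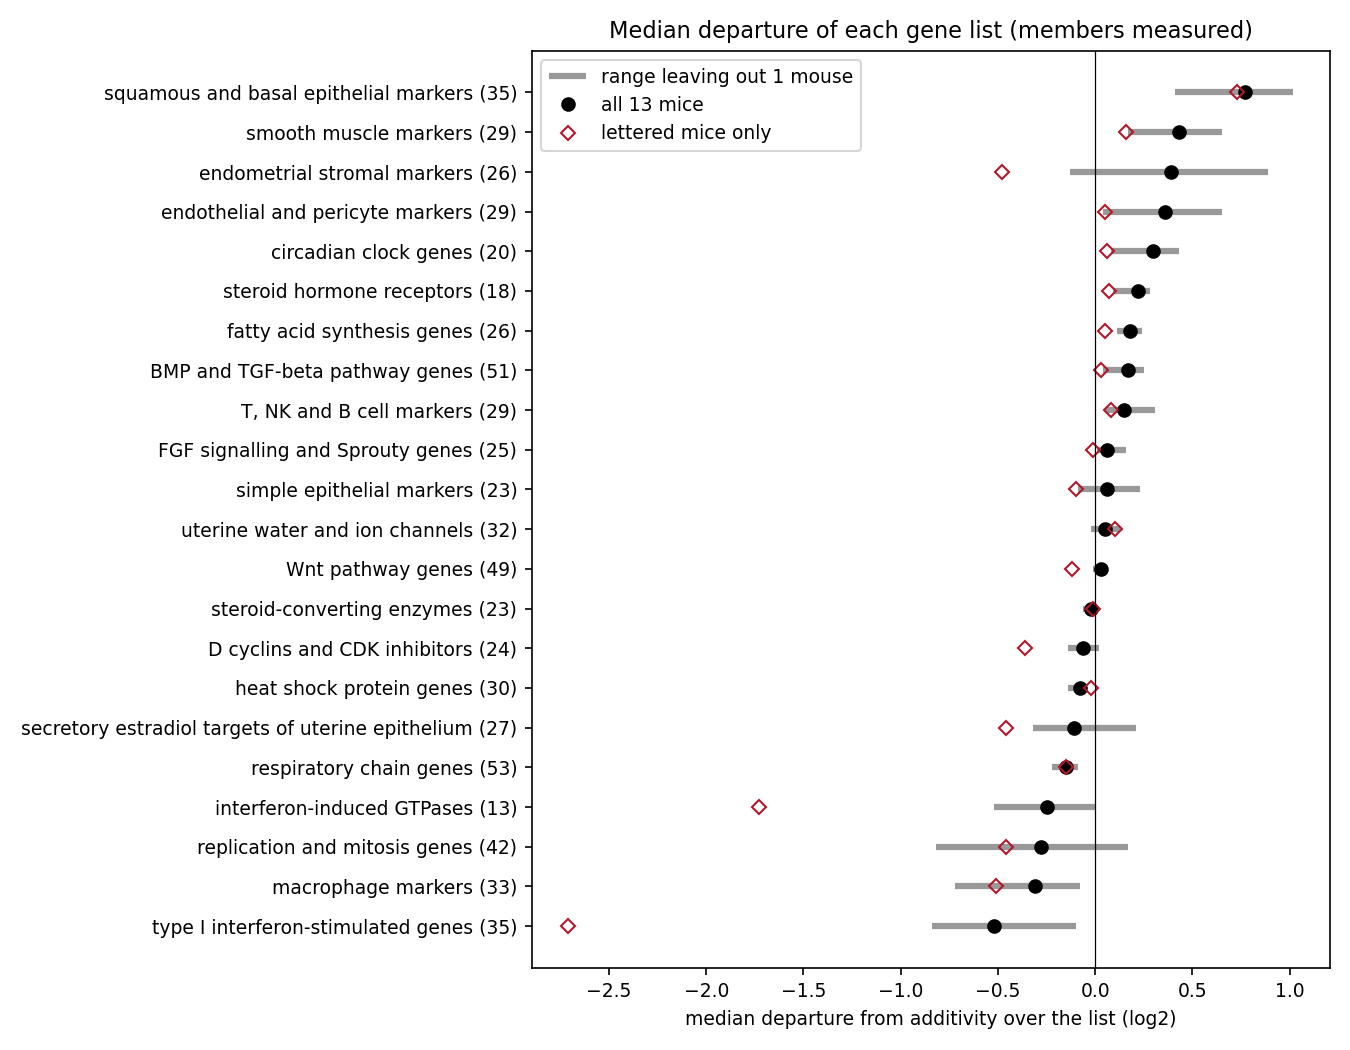
Median departure from additivity (horizontal axis, log2) of 22 gene lists, with the number of measured members. Black points use all 13 mice, grey bars the range when 1 mouse is left out, and open diamonds the lettered mice only: the squamous list stays above 0 throughout, and the stromal list does not.

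Small RNA genes lay mostly below 0 with all mice, and microRNA genes near the background. Of 62 small nucleolar RNA genes 18 were above 0, with a median of −0.26. In lettered mice 58 of them were above 0, with a median of 0.58. Of 600 microRNA genes 162 were above 0 (27.0%, against 35.5% of all features), with 20 at an unadjusted p under 0.05 below 0. The microRNA median was −0.10, and 0.01 when centred on array medians. Mir341, on chromosome 12, had 6.96, 7.22 and 7.09 in MIX mice, 7.50, 7.48, 7.64 and 7.28 in E2 mice, 7.68, 8.06 and 7.50 in HD mice and 7.48, 7.61 and 7.61 in CON mice. The departure was −0.57 ± 0.19, and −0.09 in lettered mice. The array feature does not tell the mature arms or the precursor apart. The mature sequences (RefSeq, GRCm38.p6) are printed because this gene had the smallest p of the class, with the seed (bases 2 to 8) in capitals, and the arms have different seeds.
mmu-miR-341-5p: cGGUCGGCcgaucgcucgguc
mmu-miR-341-3p: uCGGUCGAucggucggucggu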

How the data were processed

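Endometrial RNA of 13 mice was measured on 1 Affymetrix array each. The deposited values are log2 intensities from RMA, which the submitters' processing notes name without a version. They cover 65929 features, of which 30604 have 1 gene symbol, 2146 several and 33179 none here, and 827 symbols were updated. A gene is its brightest feature. Array number limits precision.

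The departure (MIX − HD) − (E2 − CON) was tested with limma 3.58.1 in R 4.3.3, with 4 group coefficients and no covariate, two-sided, Benjamini-Hochberg adjusted over all features, threshold 0.05, and errors in the text are its SE. The fit was tested on simulated data. The labels do not say whether mice of a group shared a cage or a day. Named genes were, in each direction, the 12 bright genes (a group mean of 6 or more) with the smallest p, the 8 with the largest departure at p under 0.05, up to 4 members of each of 22 described lists (of 54), 5 hormone checks, and 2 small RNA genes. Pkp1, Gsta4, Dsc3, Sprr1a, Cnfn, Lor, Tgm3, Spry1, Ltbp1, Bmp3, Bmp2, Smad3 and Tgfbr1 were added to say what their lists hold. The lists and genes were chosen with earlier results of these data known. No set test was run. Same-numbered mice's residuals correlated from −0.261 to 0.31, and differently numbered mice's from −0.407 to 0.485. No pairing by replicate number was assumed, and with so few mice these values cannot exclude one. Linear-scale list medians and the immunoglobulin class were added after seeing the data.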

Additional observations from a re-analysis of the deposited data

Results flagged for a closer look

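The 4 E2 mice were examined in 41 genes, and in 3 genes 1 mouse lay far from the other 3. Chance would give about 1 in 20, and the count is close to that. The genes share the same 4 mice, so they are not independent. In E2 mice, Gne, an enzyme of sialic acid synthesis, was lowest in E2 3 at 6.89, Ighv1-77 was lowest in E2 3 at 3.74, and Ndufs6 was highest in E2 1 at 9.39. For 6 of 41 genes examined, mice under 1 treatment went opposite ways with and without the other treatment, with no overlap between mice. These were Creb3l4 (departure 0.65), Klf10 (1.04), Tob1 (0.72), Prdm1 (1.5), Bmp5 (−1.28) and Ndufs6 (−0.58). The opposite directions as such were not tested. The departure, which is the difference between the directions, did not pass adjustment in limma for any of the 6 genes. Most of the 41 were chosen for a small p or a large departure, so this count is not independent of the departure. Over all features the pellet patterns held 0.0319% and 0.0804%, and the diet patterns 0.041% and 0.141%.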

How the results depend on the processing

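The count of features with a departure was 0 with all mice and 0 under code style as a covariate, the replicate block, quantile normalization, median centring, both feature filters, the trend and robust fit and lettered mice only. It was 1 with array weights (Trp63), and 0 to 5 when 1 mouse was left out (5 without MIX 2, 2 without MIX 3). The count at unadjusted p under 0.05 was 3035, against 1382 with code style, 1411 in lettered mice, 3726 with the replicate block, 6023 with array weights, and 1679 without HD 2 to 5315 without HD 3. The 74 features with opposite pellet directions became 29 without dim features and 101 to 356 when 1 mouse was left out, since fewer mice overlap less. Of 2676 values for 122 named genes, 23 changed sign, in 14 genes. In lettered mice these were Rara −0.0375, Srd5a3 −0.0282, Spint2 −0.15, Cldn3 −0.20, Smtn −0.25, Pdgfrb −0.54, Nr2f2 −0.20, Thy1 −0.0877, Chordc1 0.17 and Hsp90aa1 0.0597. Ltf was 0.0100 median-centred, 0.23 with array weights and 1.26% of the CON mean on linear values, and without 1 mouse ran from −0.32 to 0.12. Lcn2 was 0.0107 with code style and 0.0100 with array weights, and without 1 mouse ran from −0.36 to 0.0161, Pgr from −0.21 to 0.50 and Esr1 from −0.0471 to 0.53. The cause of these changes was not tested.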
